A study of Mus musculus with 7 samples.

Results

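The 7 genes described here encode 4 factors of the Sp family, Sp1, Sp3, Sp4 and Sp7, and 3 factors of the Onecut family, Onecut1, Onecut2 and Onecut3. They were taken by gene name from a table of 22880 genes measured in mouse optic nerves at postnatal day 14 (P14). Sp7 and Onecut2 were selected on measured values, because they were lower in the mutant nerves in the same comparison, so their difference is a description and carries no test. The other 5 are their relatives, added for their family.

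Nerves came from 4 control mice (CT), which were FASN lox/lox and carried no Cre, and from 3 mutant mice (cMU), which were olig2cre FASN lox/lox. All 7 mice were labelled P14 with a C57Bl/6 background, both genotypes carried the floxed Fasn allele, and both nerves of a mouse made 1 sample. Fasn encodes fatty acid synthase, and Olig2 regulatory sequences drive Cre in cells of the oligodendrocyte (OL) lineage, so each value is a mean over cells with and without Cre. According to the methods, the floxed allele was made on 129X1/SvJ material, later crossed with C57BL/6 and DBA, and backcrossed for at least 3 generations. The methods also name lox/lox or lox/wt mice as controls of the developmental studies, and state that both sexes were used. The CT mice had no Cre, so an effect of Cre itself cannot be told apart from that of the deletion. Levels are given in FPKM, fragments scaled for transcript length and library size, which allows genes to be set side by side. Fasn itself measured 205 ± 25.1 FPKM in CT (SD, n = 4) and 56.3 ± 11.3 FPKM in cMU (SD, n = 3), a log2 fold change of -1.86 (SE 0.138, adjusted p = 0.00312, limma-trend).

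Sp factors bind GC-rich DNA, often the sequence called a GC box, through 3 zinc fingers at their carboxyl end. Sp1 and Sp3 are present in nearly all cells, Sp4 is best known from neurons, and Sp7, also called osterix, is known as a factor that precursors of bone need to become osteoblasts. Onecut factors hold 1 cut domain beside a divergent homeodomain. They are known from the liver, the pancreas and the retina, where they act in the specification of cell types.

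RefSeq promoters were matched by symbol for Sp1, Sp3, Sp4 and Onecut1, with 5 entries in all since Sp3 has 2. For Sp7, Onecut2 and Onecut3 none is shown. The 250 bases upstream of the start of Sp3 and of Sp4, Sp genes whose RefSeq start is also the 5′ end of the GENCODE gene, are printed to show the GC boxes that lie in the promoters of GC-box binding factors. They are written 5′ to 3′ on the minus strand of GRCm38.p6, at chr2:72980447-72980696 for Sp3 and at chr12:118301441-118301690 for Sp4, with GGGCGG or its complement CCGCCC in capitals.
Sp3: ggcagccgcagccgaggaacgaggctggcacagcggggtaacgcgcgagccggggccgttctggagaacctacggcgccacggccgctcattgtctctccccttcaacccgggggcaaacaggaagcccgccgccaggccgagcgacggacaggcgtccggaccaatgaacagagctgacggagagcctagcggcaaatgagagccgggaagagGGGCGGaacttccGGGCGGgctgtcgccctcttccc
Sp4: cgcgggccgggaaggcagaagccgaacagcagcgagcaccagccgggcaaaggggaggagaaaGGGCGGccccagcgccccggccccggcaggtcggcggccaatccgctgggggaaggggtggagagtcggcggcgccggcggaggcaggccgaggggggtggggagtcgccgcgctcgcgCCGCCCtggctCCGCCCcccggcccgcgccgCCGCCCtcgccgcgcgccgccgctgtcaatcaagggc
The Sp3 stretch held 2 GC boxes, which began 36 and 23 bases before the start, and the Sp4 stretch held 4, which began 187, 68, 57 and 37 bases before it. Over the full window of 300 bases, from 250 before to 50 after a start, Sp1 had 4 GC boxes, Sp4 had 5, Onecut1 had 3 and the Sp3 entries had 2 and 5. GGGCGG on either strand was found in 11714 of 32851 RefSeq promoters of that length (35.7%). ATCAAT, letters that Onecut factors are known to bind, was in 7.54% of the promoters and in none of these 5, and ATCGAT was in 0.925% and in none of the 5. A match is a description of letters and not of binding.

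Libraries held 31314433 to 43462575 estimated reads in CT and 27452222 to 35750061 in cMU. The myelin gene Mbp measured 26400 ± 2480 FPKM in CT, as the label of optic nerve implies. Of genes of retinal ganglion cells and neurons, the factors Pou4f1 and Pou4f2 were below 0.3 FPKM in every mouse, but others were present, with Rbpms at 7.79 to 14.4 FPKM and Nefl at 5.55 to 10.4 FPKM, and the summed level of the 19 was 75.4 to 85.5 FPKM in CT and 84.3 to 125 FPKM in cMU. Of 13866 genes tested, 363 passed an adjusted p of 0.05 (2.62%), 188 lower in cMU (1.36%) and 175 higher (1.26%). With replicate number as a block, 1159 passed, 890 of them higher. Without the block, 3387 of the 13866 had an unadjusted p under 0.05. The share of higher genes among those that passed was 48.2%, and it was 33.4% after quantile normalisation, 39.0% with FPKM rescaled to an equal sum per sample and 27.7% on normalized counts. The count rested on single libraries, since it was 60, 15, 6 and 117 without CT 1, 2, 3 and 4 and 186, 907 and 6 without cMU 1, 2 and 3.

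Sp7 lies on chromosome 15 (GRCm38, 102356609 to 102366325, minus strand) and overlaps no other gene of the GENCODE annotation. Its level was 13.5, 13.7, 11.9 and 13.5 FPKM in CT 1 to 4 and 7.56, 6.43 and 5.05 FPKM in cMU 1 to 3. Every cMU value lay below every CT value, as for 8.26% of all tested genes, and CT 3 lay apart from the other 3 CT mice. The means were 13.2 ± 0.853 FPKM (SD, n = 4) and 6.35 ± 1.26 FPKM (SD, n = 3), so cMU nerves held 48.2% of the CT level. The fitted log2 fold change was -1.01 with an SE of 0.124 and a 95% interval of -1.29 to -0.73. These values rested on 1230 to 1699 reads in CT and 403 to 785 reads in cMU.

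The 3 cMU mice differed among themselves in Sp7. Set against the CT mouse of the same number, cMU 1 held 56.1%, cMU 2 held 46.8% and cMU 3 held 42.5%. The labels do not say what a replicate number stands for. Since the groups did not overlap, any pairing shows Sp7 lower, and cMU 1 was the nearest to the CT mouse of its number. Leaving out 1 library at a time moved the log2 fold change between -1.14, without cMU 1, and -0.87, without cMU 3.

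Onecut2 lies on chromosome 18 (64340364 to 64398488, plus strand) and also overlaps no other annotated gene. It measured 3.93, 3.23, 3.11 and 3.38 FPKM in CT 1 to 4 and 2.10, 2.17 and 1.88 FPKM in cMU 1 to 3. The groups did not overlap, with cMU lower, as for 8.26% of all tested genes. The cMU mice lay closer together than the CT mice, of which CT 1 was the highest. The means were 3.41 ± 0.361 FPKM (SD, n = 4) and 2.05 ± 0.15 FPKM (SD, n = 3), which is 60.1% of CT. The log2 fold change was -0.62 (SE 0.11, 95% interval -0.86 to -0.37). Its low FPKM belongs to a transcript of 13390 bases, and the reads behind it numbered 1419 to 2280 in CT and 691 to 1007 in cMU, more than for Sp7 with 2906 bases.

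Against the CT mouse of the same number, Onecut2 was at 53.6%, 67.0% and 60.5% in cMU 1 to 3. By these shares cMU 1 was the nearest to its same-numbered CT mouse for Sp7 and the farthest for Onecut2. These shares depend on the CT mouse used, and CT 1 had the highest Onecut2 of the CT mice. By level, cMU 3 was the lowest cMU mouse for both genes. The highest was cMU 1 for Sp7 and cMU 2 for Onecut2. The pseudocount of 0.5 weighs on a gene at this level, and the log2 fold change of Onecut2 was -0.705 with 0.1 and -0.53 with 1.

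**Figure D1:**
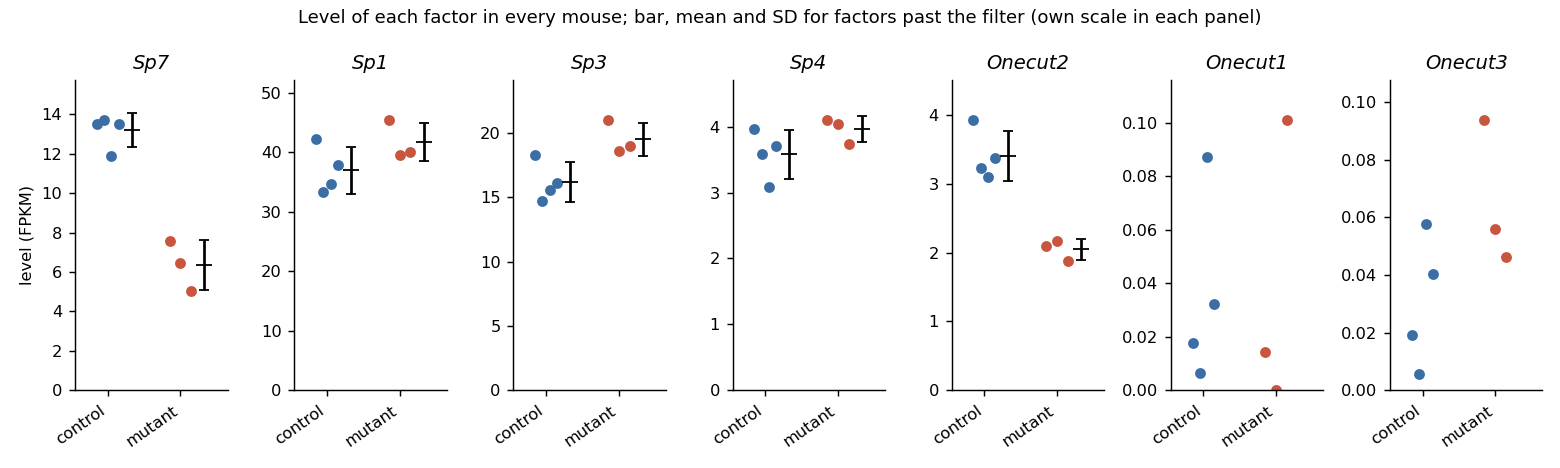
Level in FPKM of each of the 7 factors in every mouse, with CT in blue and cMU in red, each panel on its own linear axis from 0. Bars give mean and SD for the 5 factors past the filter on low values. Sp7 and Onecut2, chosen on this comparison, show no overlap, with 5.05 to 7.56 FPKM against 11.9 to 13.7 for Sp7, while Sp1 and Sp4 overlap.

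None of Sp1, Sp3 and Sp4 had a lower mean in cMU than in CT. Sp1, the family's general activator, was the most abundant member, with 42.2, 33.3, 34.7 and 37.9 FPKM in CT and 45.4, 39.5 and 40.1 FPKM in cMU. Its groups overlapped, with means of 37.0 ± 3.95 FPKM (SD, n = 4) and 41.7 ± 3.21 FPKM (SD, n = 3). The log2 fold change of 0.17 did not pass the test (SE 0.0917, 95% interval -0.04 to 0.38, adjusted p = 0.286, limma-trend).

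Sp3, which binds the same GC boxes as Sp1, measured 18.3, 14.7, 15.6 and 16.1 FPKM in CT and 21.0, 18.6 and 19.0 FPKM in cMU. All 3 cMU mice lay above all 4 CT mice, CT 1 by a narrow margin. Groups that did not overlap were common, with 21.1% of all tested genes, 12.9% with cMU higher and 8.26% with cMU lower. The log2 fold change of Sp3 was 0.27 (SE 0.0876, 95% interval 0.07 to 0.47) and missed the threshold, its adjusted p from limma-trend being 0.119. It did pass with array weights, where the adjusted p was 0.049, and over all 16 alternatives that value ran from 0.049 to 0.279. Sp3 overlaps Gm11084 on the same strand, whose reads cannot be told apart from it where they share sequence. It also overlaps the antisense gene Sp3os, and whether the counting used strand to separate their reads is not given.

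Sp4 measured 3.96, 3.59, 3.09 and 3.71 FPKM in CT and 4.10, 4.05 and 3.74 FPKM in cMU. The groups overlapped, and the log2 fold change of 0.13 did not pass (SE 0.104, 95% interval -0.10 to 0.37, adjusted p = 0.462, limma-trend).

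Of the Sp genes outside the 7, 1 of 5 passed the filter on low values. Sp2 was detected at 8.2 ± 1.11 FPKM in CT and 8.6 ± 0.63 FPKM in cMU, with a log2 fold change of 0.07 that missed the threshold (adjusted p = 0.744, limma-trend) and was below 0 under 3 alternatives. Sp5, Sp6, Sp8 and Sp9 were below the filter, which asks for 0.5 FPKM in at least 3 samples. Sp5, a known target of Wnt signalling, had 0.133 to 0.152 FPKM in CT and 0.199 to 0.346 FPKM in cMU, from 10 to 13 and 13 to 26 reads. Sp8 reached 0.535 FPKM in CT 2, from 94 reads, and 0 to 0.162 FPKM in the other 6 mice, and Sp9 was likewise highest in CT 2, at 0.209 FPKM.

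The relatives of Onecut2 were near the floor of the measurement. Onecut1 had 0.0175, 0.00644, 0.0872 and 0.0323 FPKM in CT and 0.0141, 0 and 0.101 FPKM in cMU, from at most 15 reads. Onecut3 had 0.0193, 0.00544, 0.0578 and 0.0402 FPKM in CT and 0.0937, 0.0559 and 0.0461 FPKM in cMU, from at most 16 reads. Both groups overlapped for both genes, and at this depth no difference was detectable. Onecut2 was thus the one Onecut factor with a level above the filter in these nerves.

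**Figure D2:**
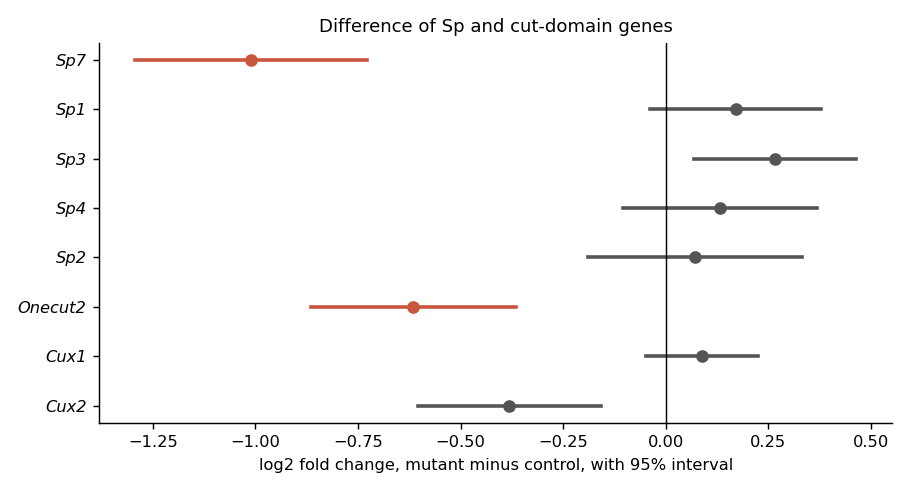
Log2 fold change, cMU minus CT, with its 95% interval for Sp and cut-domain genes that passed the filter. Sp7 at -1.01 and Onecut2 at -0.62, in red, were chosen on this comparison, and the intervals of Sp1, Sp2, Sp4 and Cux1 include 0.

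In CT the order of levels was Sp1 with 37.0 FPKM, Sp3 with 16.2 FPKM, Sp7 with 13.2 FPKM, Sp4 with 3.58 FPKM and Onecut2 with 3.41 FPKM. Sp4 and Onecut2 overlapped, with Sp4 the higher in 3 of 4 mice, and the ranges of the other neighbours did not overlap. Onecut1 and Onecut3 came last, with means of 0.0359 and 0.0307 FPKM and overlapping ranges. In cMU the first 5 kept this order with no overlap, at 41.7, 19.5, 6.35, 3.97 and 2.05 FPKM.

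The spacing between the factors shifted with genotype, as follows from the levels above. Within single mice, Sp1 exceeded Sp7 by 2.43 to 3.13 times in CT and by 6.0 to 7.95 times in cMU. Sp3 exceeded Sp7 by 1.07 to 1.36 times and by 2.78 to 3.76 times. The ratio of Sp1 to Sp3 was 2.22 to 2.35 in CT and slightly lower, without overlap, at 2.11 to 2.16 in cMU. Sp4 and Onecut2 were nearly equal in CT, with a ratio of 0.992 to 1.11, and 1.87 to 1.99 in cMU.

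All 7 genes carry the annotation to regulation of transcription in the deposited table. Of 1591 tested genes with it, 17 were lower and 18 higher past the threshold, a share of 1.07% and 1.13%, and their median log2 fold change was 0.051 beside 0.048 over all tested genes. Sp7 had the lowest log2 fold change of the 1591 and the 15th lowest of all 13866. Onecut2 was 7th among the 1591. Both genes are counted among the 17 and were chosen on this comparison, so neither that nor their ranks is a test of them. Other annotated genes that were lower past the threshold and named after their values were seen are the homeobox gene Gsx1 (-0.85, adjusted p = 0.0259), the inhibitor of apoptosis Birc2 (-0.75, adjusted p = 0.00312) and the deacetylase Sirt2 (-0.58, adjusted p = 0.0265), all from limma-trend.

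Sp7 and Sp1 are neighbours in the genome, 39.8 kb apart on opposite strands of chromosome 15. Within 200 kb of Sp7, 16 tested genes other than the members had log2 fold changes of -0.18 to 0.50, and 0 of 16 passed the threshold in limma-trend. The gene with the smallest p was Zfp740, with a log2 fold change of -0.18 (adjusted p = 0.108, limma-trend), and it was the 1 gene under an unadjusted p of 0.05. The nearest gene, Aaas, which encodes a nuclear pore protein, lies 5.85 kb away on the same strand and measured 6.8 ± 0.223 FPKM in CT and 6.46 ± 0.2 FPKM in cMU. The log2 fold change of Aaas was -0.07 (SE 0.0755, adjusted p = 0.606).

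Onecut2 has 4 tested genes within 200 kb, and 1 passed. St8sia3, a sialyltransferase that links sialic acids to one another and is known from the brain, lies 64.2 kb upstream on the same strand. It measured 35.9, 32.1, 31.4 and 32.1 FPKM in CT and 22.1, 26.1 and 24.1 FPKM in cMU. It fell to 73.3% of CT, with a log2 fold change of -0.44 (SE 0.0775, adjusted p = 0.032, limma-trend). That call was lost without any 1 of 6 libraries, the exception being cMU 2, and the adjusted p over the 16 alternatives ran from 0.00967 to 0.0981. St8sia3 overlaps the antisense gene St8sia3os. The 3 genes downstream, Fech, Nars and Atp8b1, had log2 fold changes of -0.05, 0.01 and -0.04 and did not pass.

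**Figure D3:**
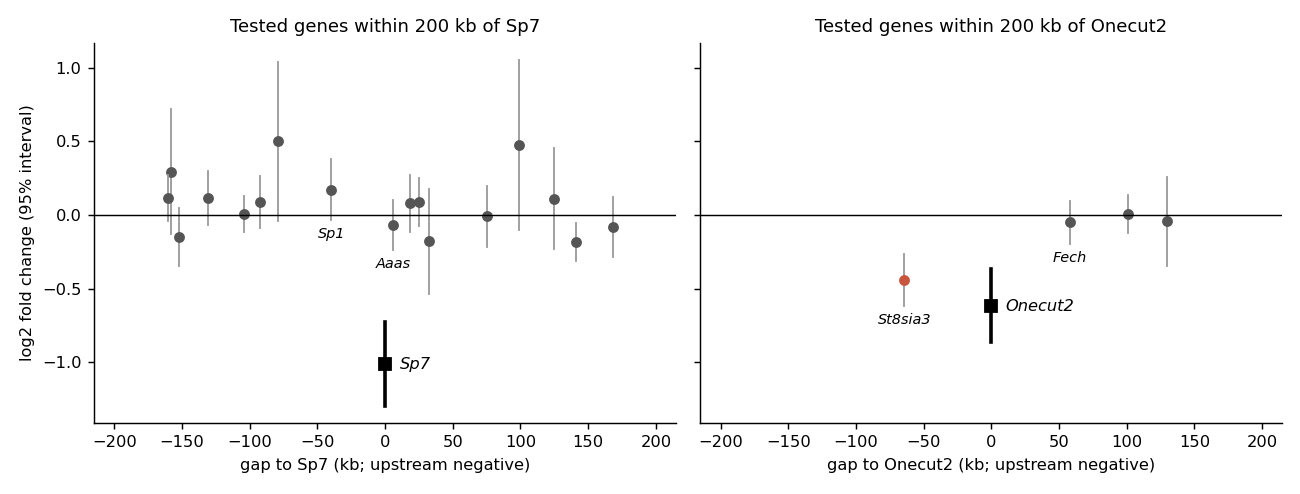
Log2 fold change with 95% interval of the tested genes within 200 kb of Sp7 (left) and Onecut2 (right), by the gap to that gene in kb with upstream negative. The neighbours of Sp7 lie between -0.18 and 0.50 around Sp7 at -1.01, and beside Onecut2 St8sia3, in red, lies at -0.44.

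Each of the 2 genes was compared with all tested genes by its profile over the 7 mice, as the root mean square difference of centred log2 values. For Sp7 the nearest were Gsx1 (0.158), the chaperone Clgn (0.161), the lactate transporter Slc16a3 (0.168), the cytochrome Cyp2j12 (0.192) and Dlk2 (0.196), where the median gene had 0.56. Gsx1 measured 2.21, 1.78, 1.58 and 1.87 FPKM in CT and 0.978, 0.69 and 0.76 FPKM in cMU. Onecut2 was 13th in that order, at 0.237.

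For Onecut2 the nearest were the ubiquitin ligase Rnf122 (0.0483), Bspry (0.0803), the integrin-linked adaptor Parvb (0.0849), 4933415A04Rik (0.097) and the metalloprotease Adamts4 (0.0977), where the median gene had 0.365. Rnf122 measured 67.1, 57.4, 56.5 and 61.7 FPKM in CT and 39.1, 44.6 and 37.1 FPKM in cMU. Sp7 was 912th in that order, at the same distance of 0.237. Closeness here was dominated by the difference between genotypes, on which both genes were chosen, so it is a description without a test.

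**Figure D4:**
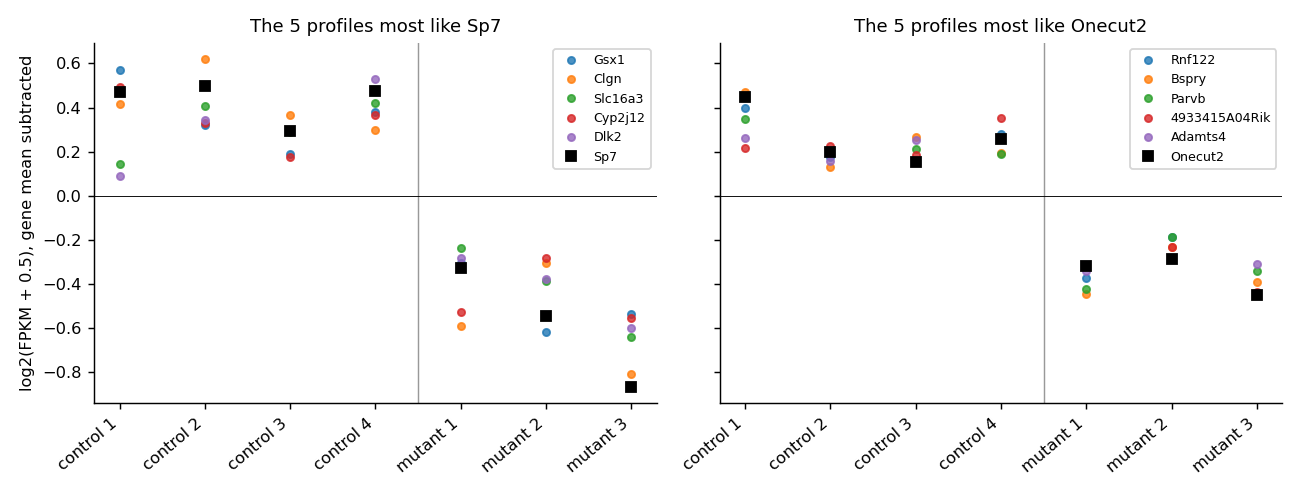
Centred log2(FPKM + 0.5) in each of the 7 mice for Sp7 (left) and Onecut2 (right), as black squares, with the 5 most alike genes in colour. CT values lie above 0 and cMU values below it for all of them, and Sp7 is spread over the 3 cMU mice more widely than Onecut2.

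In whole nerves, fewer cells of a type and less RNA per cell cannot be told apart, and part of the genes listed for the OL lineage fell in cMU, as counted here. Of 10 tested genes of newly formed OLs, 4 fell and 0 rose, with a median log2 fold change of -0.40, and their summed level was 1260 to 1410 FPKM in CT and 880 to 1120 FPKM in cMU. Those 4 were the calcium-sensing receptor Casr (-1.17), the sialidase Neu4 (-0.73), the small GTPase Rras2 (-0.64) and the zinc transporter Tmem163 (-0.63). With the replicate block 7 of the 10 passed. Of 8 genes of OL progenitors (OPCs), 3 fell, Vcan, Gpr17 and Cspg4, with a median of -0.37. The study counted Gpr17 among transcripts enriched in myelin-forming OLs. Named after their values were seen, Pdgfra, the OPC marker of the study, overlapped between groups (-0.14, adjusted p = 0.537, limma-trend). Ptprz1 was the 1 gene of the 8 above 0 (0.08). Of 12 genes of mature OLs, the myelin adhesion gene Mag fell (-0.45) and the protease Klk6 rose (1.36), with a median of -0.21 (-0.13 without cMU 1 and -0.35 without cMU 2) and sums of 57900 to 65500 FPKM and 42500 to 54700 FPKM. Mag was no longer called once limma-trend included the block (adjusted p = 0.0726), nor after quantile normalisation or on normalized counts. With FPKM rescaled to an equal sum per sample, Cspg4 and Tmem163 were not called. Whether the lower OL genes account for the lower Sp7 and Onecut2 was not tested.

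Other cell types of the nerve were described by lists of the same kind. Of 8 astrocyte genes, Aldoc, Gja1, Aldh1l1 and Slc1a2 rose, with a median log2 fold change of 0.50 and sums of 3230 to 3640 FPKM in CT and 4070 to 5010 FPKM in cMU. Slc1a2 lost its call under all 3 other scalings, with an adjusted p of 0.0566 to 0.0753 in limma-trend. Of 8 microglial, 7 endothelial and 9 meningeal fibroblast genes 0 passed in limma-trend, with medians of 0.14, 0.30 and 0.57. These medians rested in part on single libraries. The microglial one was 0.09 without cMU 3, 0.25 without cMU 1 and 0.22 without CT 4, the endothelial one was 0.20 without CT 4, and the meningeal one was 0.32 without cMU 1. At an unadjusted p under 0.05 there were 3, 4 and 6, beside 3387 of all 13866 tested genes. With the replicate block, 1, 2 and 7 genes of these lists passed, beside 1159 of the 13866. Of 13 tested neuronal and retinal ganglion cell genes, 0 passed in limma-trend without the block and 1 with it, 3 had an unadjusted p under 0.05, and the median was 0.33. Without cMU 3 it was 0.05.

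Since Sp7 is known from bone, its levels were set beside those of osteoblast genes. Of 14 such genes 7 were tested, with a median log2 fold change of 0.54 that was 0.24 without cMU 1, and 1 rose, Sparc (0.53, adjusted p = 0.0354), a matrix gene that many other cells also express. Sparc was not called after quantile normalisation (adjusted p = 0.0514), on normalized counts (adjusted p = 0.0554) or without any 1 library other than cMU 2, all in limma-trend. With the replicate block 4 passed. Of the bone genes in the list, Ibsp, Dmp1, Mepe and Sost were below 0.4 FPKM in every mouse. Bglap and Bglap2 were higher, reaching 9.02 and 2.81 FPKM in CT 1. The summed level was 1320 to 1800 FPKM in CT and 1910 to 2950 FPKM in cMU, mostly from collagens and Sparc. The sum was higher in cMU, the group with the lower Sp7. Among the cMU mice it was highest in cMU 1, which also had the highest Sp7. Alpl, a phosphatase of osteoblasts that other cells share, had 80.8 FPKM in cMU 1 and 7.06 to 21.3 FPKM in the other 6 mice. Bglap, which encodes osteocalcin, was highest in CT 1 at 9.02 FPKM, where Sp7 was at 13.5 FPKM as in CT 4 with 2.59 FPKM of Bglap. Whether the levels of these genes and of Sp7 are linked was not tested.

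Factors and signals that are known to act with or upstream of Sp7 in bone were also listed. Of 13 tested, 1 rose, the BMP receptor Bmpr1a (0.43, adjusted p = 0.032, limma-trend), and 0 fell, with a median log2 fold change of 0.16 that was 0.08 without cMU 1. Bmpr1a passed in 9 of the 16 alternatives, and with no filter its adjusted p from limma-trend was 0.0644. Runx2, the factor upstream of Sp7 in osteoblasts, measured 0.601 to 0.772 FPKM in CT and 1.83, 0.522 and 0.807 FPKM in cMU.

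Among 18 transcription factors of the OL lineage 4 fell and 0 rose, with a median log2 fold change of -0.24. These were Myt1 (-0.54), Sox8 (-0.51), Olig2 (-0.43) and Zfp488 (-0.33), with adjusted p of 0.0214, 0.0336, 0.0439 and 0.0454 from limma-trend. Olig1 and Myrf, the most abundant besides these, had log2 fold changes of -0.31 and -0.34 and did not pass (adjusted p = 0.127 and 0.0522, limma-trend). Sox10, named after its value was seen, also missed narrowly (-0.37, adjusted p = 0.0502, limma-trend). Of the 18, 10 had an unadjusted p under 0.05, beside 3387 of all 13866 tested genes, and 3 had a log2 fold change above 0. The study, which used edgeR, reported Olig1, Sox10 and Myrf as lower, with Sox10 and Myrf also lower by qRT-PCR. The log2 fold change of Sp7 was thus of larger size than that of any of the 18, the lowest of which was -0.64, whereas that of Onecut2 lay within their range. This order is a description, since Sp7 was chosen for its low value.

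The wider families were looked at in the same way. Of 14 tested Krüppel-like factors, whose zinc fingers resemble those of Sp factors, 0 passed in limma-trend. Their median log2 fold change was 0.22 (0.13 without cMU 1). With the replicate block 2 passed. Without it 6 had an unadjusted p under 0.05, beside 3387 of all 13866 tested genes. The most abundant, Klf13, measured 195 ± 6.21 FPKM in CT and 162 ± 17.1 FPKM in cMU (log2 fold change -0.27, adjusted p = 0.0854, limma-trend). Of 3 tested genes with other cut domains 0 passed in limma-trend, and 1, Cux2, had an unadjusted p under 0.05. Cux1 had a log2 fold change of 0.09 (adjusted p = 0.39) and Cux2 one of -0.38 (adjusted p = 0.0728), from 16.2 ± 1.83 FPKM in CT to 12.3 ± 0.874 FPKM in cMU.

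Genes of lipid synthesis with known Sp1 sites were listed because Fasn is one. Of 10 tested, Fasn fell, but it is the gene targeted for deletion in these mice. Scd1, a desaturase of fatty acids, rose (0.56, adjusted p = 0.048, limma-trend), and the other 8 missed the threshold. Scd1 was not called with FPKM rescaled to an equal sum per sample (adjusted p = 0.056), on normalized counts (adjusted p = 0.0998) or with no filter (adjusted p = 0.109). It passed in 7 of the 16 alternatives. The list had a median log2 fold change of 0.02, which ran from -0.02 to 0.12 with 1 library left out. Over all lists together 21 of 136 tested genes passed, 13 lower, with the deleted Fasn among them, and 8 higher. With the replicate block 41 passed, 17 lower and 24 higher, and with array weights 49 passed, 24 lower and 25 higher. That count was 5, 3, 2 and 10 without CT 1, 2, 3 and 4, and 12, 30 and 1 without cMU 1, 2 and 3. The gene left without cMU 3 was Fasn.

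**Figure D5:**
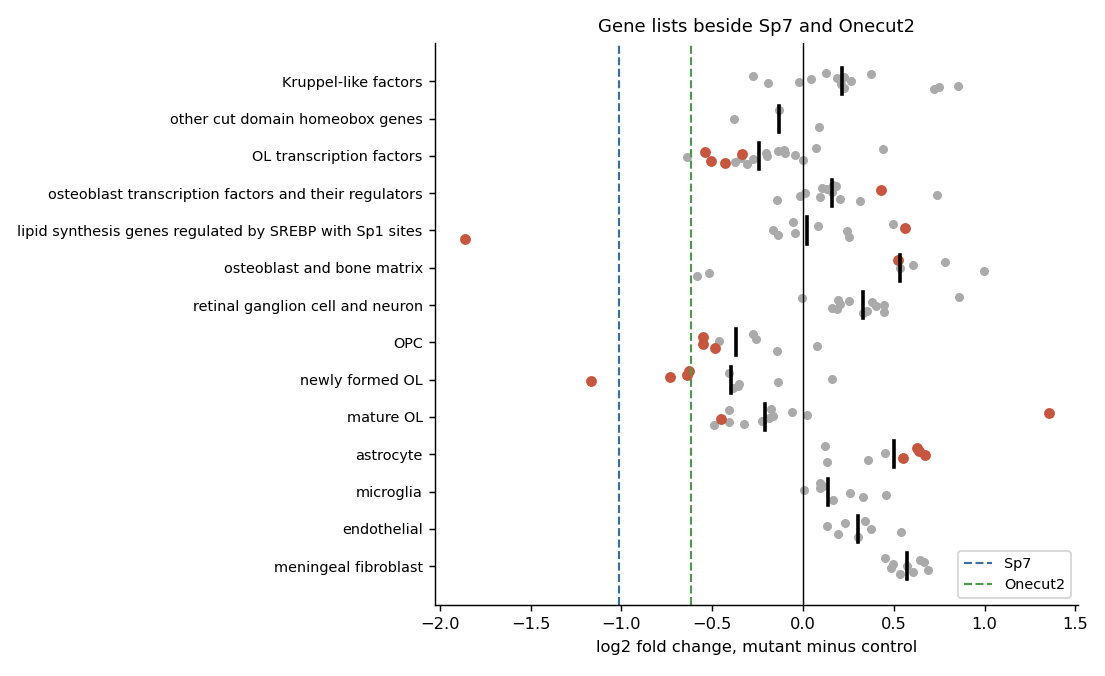
Log2 fold change, cMU minus CT, of the tested genes in each list, with genes past the threshold in red and the median of the list as a black bar. Dashed lines mark Sp7 at -1.01 and Onecut2 at -0.62, and OL lineage lists have medians below 0 while astrocyte and meningeal lists have medians of 0.50 and 0.57 (the latter 0.32 without cMU 1).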

How the data were processed

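Optic nerve RNA of 7 mice was sequenced as single reads from poly(A) libraries made with a stranded kit. Per the labels' processing notes, STAR 2.5.1b, RSEM 1.2.22 and edgeR were used on GRCm38. The authors deposited FPKM values and normalized counts (a signal, RSEM estimates divided by a factor per sample), with gene width, GC content as a fraction, and their own fold changes, p-values and FDR, which were not used. Of values between 0.5 and 10 reads, 78.8% to 83.6% were whole to within 0.1 read, so no count model was fitted. Reads derived from them gave depth, and log2 normalized counts gave 1 of the alternatives. The test was limma-trend (limma 3.58.1, R 4.3.3) of genotype alone on log2(FPKM + 0.5). The filter kept 13866 genes whose FPKM reached 0.5 in 3 or more mice, p-values were adjusted over these by Benjamini-Hochberg, and the threshold was 0.05. The scale understates changes of low genes. The fit was tested on simulated data.

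The members and gene lists were chosen with earlier results of these data known. Named genes were the members, Fasn, other Sp genes, up to 6 nearest tested neighbours within 200 kb and the 5 most alike profiles. From each list came up to 4 genes past the threshold and the 2 most abundant. Other genes were named after their values were seen. That also holds for Pou4f1, Pou4f2, Rbpms, Nefl, Ibsp, Dmp1, Mepe, Sost, Bglap, Bglap2, Alpl, Runx2 and Zfp740, which are not marked where they appear. The labels do not say what a replicate number stands for. Deviations from the group means correlated at 0.168, 0.409 and 0.27 in the 3 same-numbered pairs, against -0.353 to 0.205 otherwise. The first pair was thus below CT 4 with cMU 1, at 0.205. Replicate number was also fitted as a block, in which CT 4 had no partner and did not contribute. That pairing was inferred from the same values that the block fit then tested. Replicates differed by more than sampling noise. Whether the counting used strand is not given in the sources used here. Coordinates are those of the deposited table on GRCm38.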

Additional observations from a re-analysis of the deposited data

Results flagged for a closer look

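Of 74 genes checked for a CT mouse far from the other 3, 7 had one by Dixon's test, and chance gives about 1 in 20 such groups. Sp7 was lowest in CT 3, at 11.9 FPKM where the others had 13.5 to 13.7 FPKM, and the log2 fold change was -1.06 without that mouse. Near Onecut2, St8sia3 was highest in CT 1, at 35.9 FPKM against 31.4 to 32.1 FPKM, and Fech was highest in the same mouse, at 34.9 FPKM against 31.6 to 32.0 FPKM. Among the profiles most like Onecut2, Parvb was highest in CT 1, at 283 FPKM against 254 to 258 FPKM, and Adamts4 was lowest in CT 2, at 134 FPKM where the others had 144 FPKM. The cut-domain gene Cux1 was lowest in CT 2, at 22.1 FPKM against 23.8 to 24.0 FPKM. The microglial gene C1qb was highest in CT 4, at 76.4 FPKM against 57.3 to 60.5 FPKM.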

How the results depend on the processing

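The number of genes past the threshold was 363, with 175 higher and 188 lower. It was 95 with no filter on low values (33 higher, 62 lower), 241 with FPKM rescaled to an equal sum per sample (94 higher), 1159 with the replicate block (890 higher), 1525 with array weights (908 higher, 617 lower), and on normalized counts 102 were higher. With 1 library left out it ran from 6 to 907, with 1 to 563 higher and 4 to 344 lower. Without the filter 19291 genes were tested. The log2 fold change of Sp7 kept its direction under all 16 alternatives, between -1.14 and -0.87, and that of Onecut2 between -0.80 and -0.53. Its more distant values were -0.74 after quantile normalisation and -0.80 on normalized counts, and the cause was not tested. Sp3 passed with array weights alone (0.27). Onecut3, below the filter, went from 0.09 to 0.34 with a pseudocount of 0.1. Sp2 was -0.019 after quantile normalisation, -0.002 on normalized counts and between -0.024 and 0.122 with 1 library left out. Among named genes the replicate block, which pairs same-numbered mice, ended the call for Mag (-0.42) and made one for Col1a2 (0.64) and Thy1 (0.40). It moved 8 list counts and changed no other call among the genes that were followed through the alternatives. Sox10, Gsx1, Birc2, Sirt2, Zfp740 and Pdgfra, among others, were not followed in this way. The tests of edgeR and DESeq2 were not run, since raw counts were not used here.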
